A study of Mus musculus with 45 samples.

Results

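The genes described here handle iron storage, uptake, export and sensing in primary mouse embryonic fibroblasts. They are 9 genes, Fth1, Ftl1, Ncoa4, Tfrc, Steap3, Slc11a2, Slc40a1, Ireb2 and Aco1, chosen by name from the 57010 gene rows of a raw count table and followed in all 45 of its libraries. RNA was sequenced from wild-type cultures in 3 states, each given 5 treatments, with 3 replicates in each of the 15 groups. Uninduced cells were proliferating controls. The other states were made senescent with 200 µM hydrogen peroxide (H2O2) or with 2 µM etoposide (a topoisomerase II poison that breaks DNA) for 24 h, and were then kept for 5 days in normal medium. The treatments lasted 12 h and were ethanol as vehicle, a fatty acid with conjugated double bonds named alpha-eleostearic acid (ESA), the methyl ester of that acid (ESA-Me), and either compound after 1 h with 2 µM ferrostatin-1 (Fer-1), a radical-trapping inhibitor of lipid peroxidation. The sample labels give both compounds at 2 µg/mL, whereas the treatment protocol has ESA at 10 µg/mL and ESA-Me at 20 µg/mL. The 2 compounds are therefore set side by side and not compared with each other. No group received Fer-1 alone. The number, sex and age of the embryos are not given in the sources used here.

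Iron enters most cells bound to transferrin through the transferrin receptor, encoded by Tfrc, is reduced in the endosome by ferrireductases such as the Steap3 product, and crosses into the cytosol through the divalent metal transporter encoded by Slc11a2. Iron that is not used is stored in ferritin, a shell of heavy chains (Fth1, which carry the ferroxidase site) and light chains (Ftl1), and is returned when the receptor encoded by Ncoa4 delivers ferritin to lysosomes. Ferroportin, encoded by Slc40a1, is the exporter. When iron is scarce, iron regulatory proteins (encoded by Aco1 and Ireb2) bind hairpins called iron-responsive elements, which blocks translation from a 5′ untranslated hairpin and protects the transcript from decay through 3′ untranslated hairpins. Free ferrous iron promotes the lipid peroxidation of ferroptosis, the form of cell death that Fer-1 inhibits. Fth1, Ftl1 and Slc40a1 are also known targets of the oxidative-stress factor NRF2.

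The hairpins are shown because they are the shared feature through which iron is known to act on these transcripts. GENCODE M21 transcripts were searched on the transcript strand for a C, 5 bases, the loop CAGTGN and 5 further bases, with at least 4 of 5 positions on the 2 sides able to pair, G-T pairs allowed. Capitals mark the 6-base loop, and each line gives 30 bases, 5′ to 3′, on GRCm38.
Fth1 5′ UTR (chr19:9982732-9982761, plus strand): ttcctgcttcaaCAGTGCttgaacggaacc
Ftl1 5′ UTR (chr7:45459778-45459807, minus strand): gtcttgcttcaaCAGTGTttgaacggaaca
Slc40a1 5′ UTR (chr1:45925464-45925493, minus strand): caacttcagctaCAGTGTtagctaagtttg
Tfrc 3′ UTR (chr16:32631219-32631248, plus strand): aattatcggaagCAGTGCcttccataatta
Tfrc 3′ UTR (chr16:32631598-32631627, plus strand): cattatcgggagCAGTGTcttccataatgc
Tfrc 3′ UTR (chr16:32631663-32631692, plus strand): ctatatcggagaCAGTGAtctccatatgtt
Tfrc 3′ UTR (chr16:32631710-32631739, plus strand): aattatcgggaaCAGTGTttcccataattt
Slc11a2 3′ UTR (chr15:100395152-100395181, minus strand): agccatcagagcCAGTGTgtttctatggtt

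The storage and export transcripts Fth1, Ftl1 and Slc40a1 held 1 match each in the 5′ untranslated region, and the uptake transcripts Tfrc and Slc11a2 held theirs in the 3′ untranslated region, 4 in Tfrc and 1 in Slc11a2. All 5 stem positions could pair in every match printed except that of Slc11a2, where 4 of 5 could. The same pattern occurred in the 5′ untranslated region of 206 of 20916 genes (0.985%) and in the 3′ untranslated region of 872 of 21039 genes (4.14%). No match was found in Ireb2, Aco1, Ncoa4 or Steap3, which says only that these letters were not in those regions. The Slc11a2 match lies in the transcript Slc11a2-205, and the gene counts used below do not separate isoforms.

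**Figure D1:**
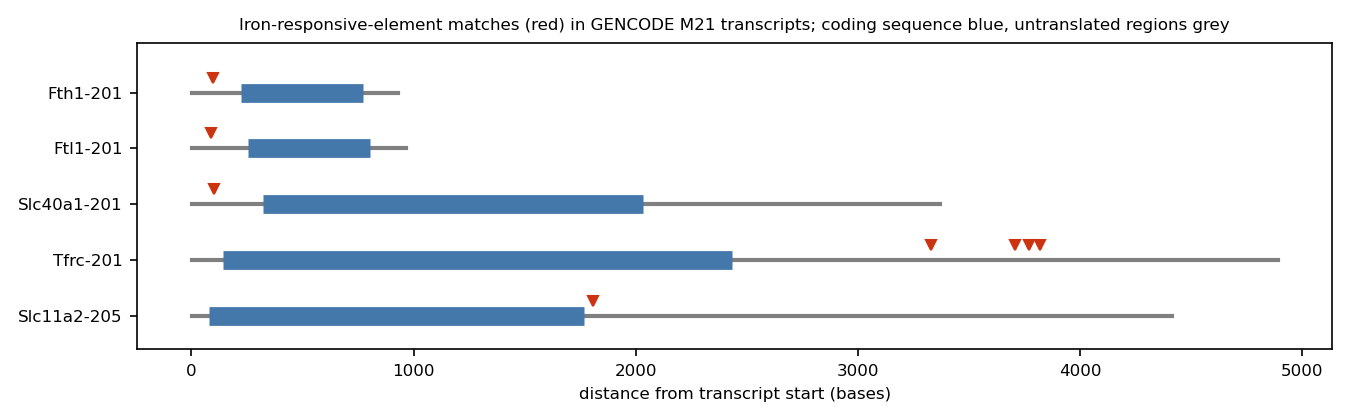
Position of iron-responsive-element matches (red triangles) along 5 GENCODE M21 transcripts, in bases from the transcript start; coding sequence is blue and untranslated sequence grey. Fth1, Ftl1 and Slc40a1 carry the match ahead of the coding sequence, and Tfrc (4 matches) and Slc11a2 (1 match) carry it behind.

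Libraries held 13.5 to 59.6 megareads (median 22.7), and all 9 genes passed the filter on low counts. Fibroblast transcripts were abundant, with Col1a1 at 3060 CPM or more in each library, although Pdgfra reached only 8.76 CPM. Erythroid and hepatocyte markers were too low to test (summed level at most 0.287 and 0.439 CPM), and none of 45 libraries had a count of Hba-a1 or Hbb-bs. The 6 macrophage markers summed to 30.3 to 228 CPM. Lyz2 alone was at 26.4 to 183 CPM, and each other marker reached at most 20.7 CPM. In induced cells the sum tracked the replicate number. Uninduced replicates 1, 2 and 3 overlapped, at 111 to 162, 42.2 to 129 and 81.8 to 130 CPM. In H2O2-induced cells replicate 3 had 200 to 223 CPM against 33.1 to 38.3 in replicate 2. Endothelial, epithelial and muscle lists had 3 of 5, 1 of 4 and 1 of 4 genes tested, and Krt19 and Des were the single genes tested in the last 2 lists. Within a state, libraries with the same replicate number deviated together from their group means, so a replicate number is called a preparation and entered the model as a block.

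Several libraries stood apart. The library labelled etoposide, ESA-Me with Fer-1, replicate 3 had 47.0 CPM of the Y-linked Ddx3y, while the other 4 etoposide libraries numbered 3 had no count, so it goes against its number. The etoposide vehicle library of replicate 1 had 134 CPM of Xist against 245 to 319 in the other 4 of its preparation. That of replicate 3 had 678 CPM of Xist against 327 to 456 in the other 4 of its number. The replicate 3 vehicle library was left out singly only in the fits of vehicle libraries, and within a state only with its whole preparation. The uninduced ESA library of replicate 2 had the highest Fth1 level of all libraries and 1370 CPM of Hmox1 against 346 and 396 CPM in the other 2 of its group. For several results below, the value without 1 of these libraries follows the full one. These are bulk libraries, in which fewer cells of a type and less RNA per cell cannot be told apart.

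Per kilobase of exon, the 9 genes covered a wide range in uninduced vehicle cells. The exon length was taken per gene and exceeded that of its longest annotated coding transcript. For Fth1 it was 3469 bases against 1494, and for Ftl1 1340 bases against 968. Ftl1 was highest at 992 ± 63.6 CPM per kilobase (SD, n = 3) and Fth1 followed at 108 ± 4.88. Aco1 (16.9 ± 0.264), Tfrc (13.3 ± 2.32) and Ireb2 (10.5 ± 0.143) formed a middle tier, with Slc11a2 (4.55 ± 0.406) and Ncoa4 (4.31 ± 0.168) below it. Steap3 (0.527 ± 0.134) and Slc40a1 (0.194 ± 0.047) were the lowest, and their counts per library went down to 14 and 25. The gaps between genes and the order of near neighbours depend on the length chosen. In mean CPM not divided by length, Ftl1 was at 1329 and Fth1 at 375.9. On that scale Ncoa4 (40.34) lay above Slc11a2 (28.91), and Ireb2 (99.11) lay above Tfrc (82) and Aco1 (75.98). Reads of ferritin pseudogenes were few: Ftl1-ps1 was counted at 0.785% to 1.66% of Ftl1 and each other pseudogene at 0.0739% of its parent or less, but how reads shared between these copies were counted is not stated, so ferritin levels are uncertain to that extent.

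**Figure D2:**
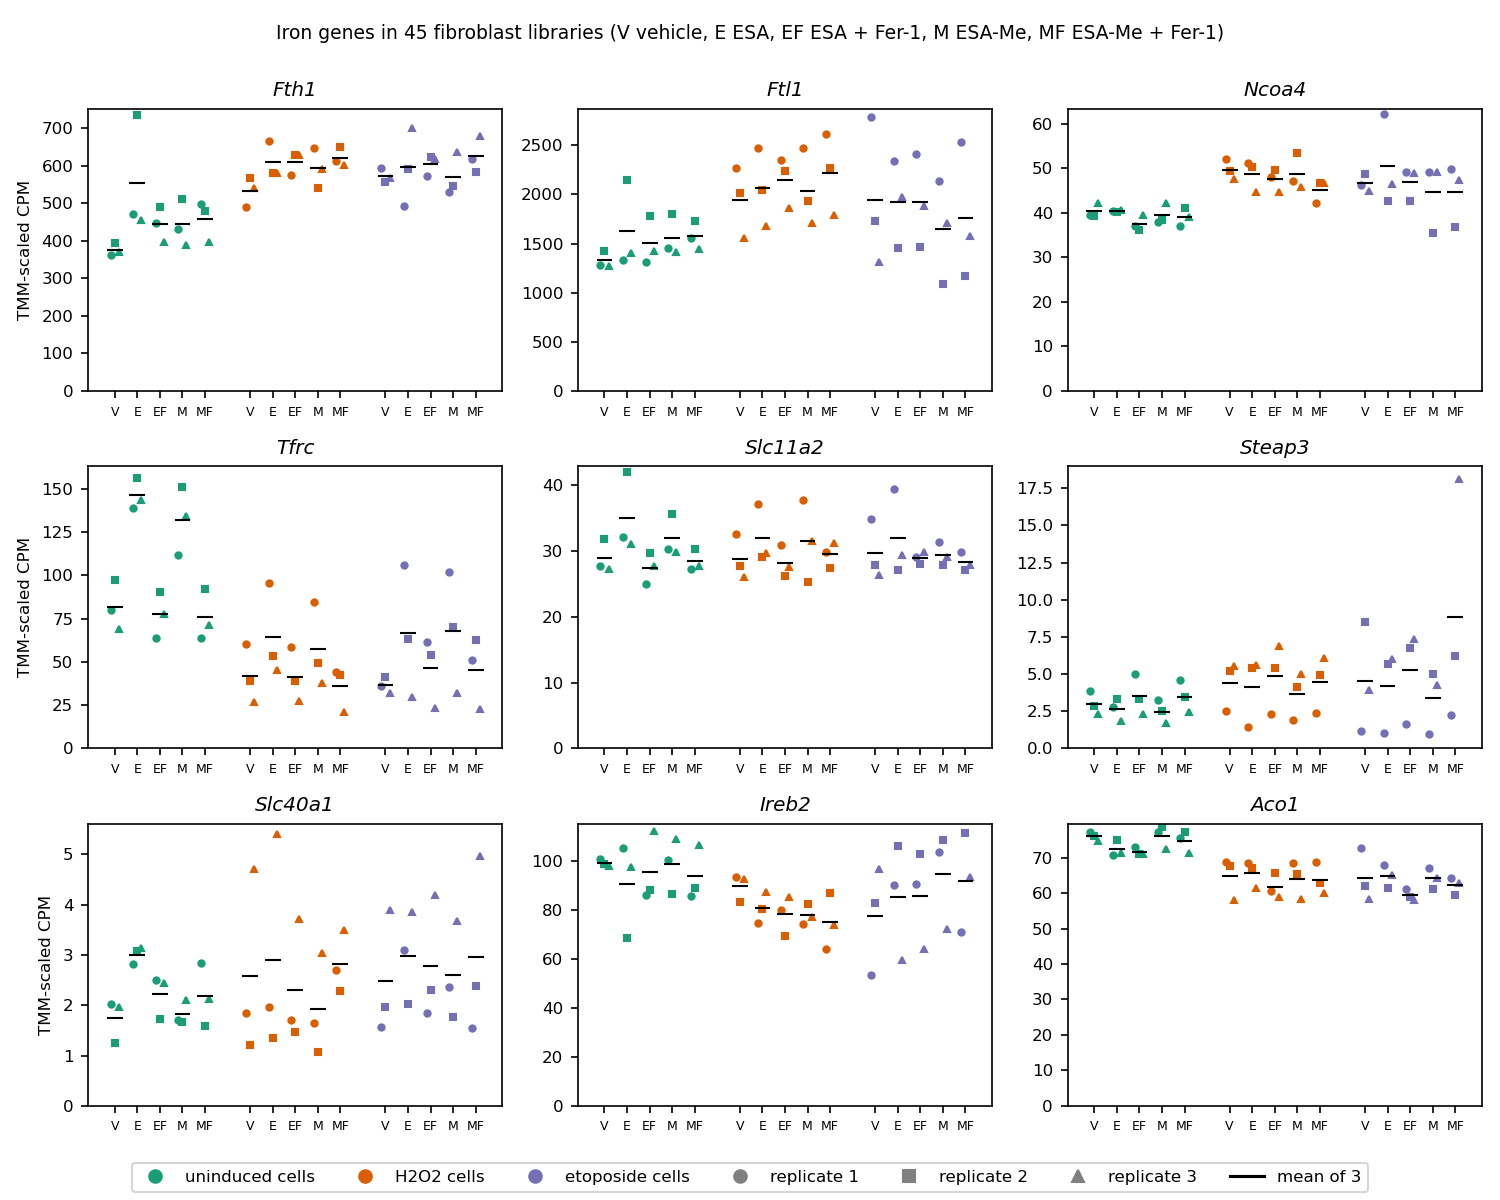
Level of each of the 9 genes in all 45 libraries, in TMM-scaled CPM on a linear axis from 0; colours are cell states, shapes are replicate numbers and black lines are means of 3 libraries. Tfrc rises to a mean of 146.3 CPM in uninduced cells with ESA and returns to 77.43 CPM with Fer-1, while Ftl1, Slc40a1 and Steap3 separate mainly by replicate number in induced cells.

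Senescent cells had more ferritin heavy chain transcript and less transferrin receptor transcript than proliferating cells, with either inducer. Of the 9 genes, 2 were called with H2O2 and 2 with etoposide, against 13% and 12.9% of the 15357 genes tested; in both comparisons these were Fth1, higher, and Tfrc, lower. Of all genes, 6.07% and 6.14% were called higher and 6.92% and 6.79% lower. The senescence tests used the 9 vehicle libraries, both inducers were set against the same 3 uninduced libraries, the H2O2 and etoposide vehicle libraries of the same number deviated together (r across genes of 0.623 to 0.762), so the 2 comparisons are not independent, and a gene was called at a Benjamini-Hochberg adjusted p under 0.05 in edgeR's quasi-likelihood test. The median log2 fold change of the 9 genes was 0.29 with H2O2 and 0.21 with etoposide, beside 0.01 and 0.03 over all genes tested. On leaving out single vehicle libraries the share of all genes called ran from 3.82% (without uninduced replicate 2) to 19.9% (without etoposide replicate 1) with H2O2, and from 3.79% to 15.2% with etoposide, without the same libraries. Sex-linked transcripts differed between the vehicle libraries. Xist was at 0, 350 and 0.0344 CPM in uninduced replicates 1, 2 and 3. It was at 300, 0.11 and 664 CPM with H2O2 and 134, 0.0311 and 678 CPM with etoposide. Ddx3y was at 87.9, 17.5 and 85.9 CPM in uninduced cells. It was at 21.1, 84.1 and 0 CPM with H2O2 and 9.87, 84 and 0 CPM with etoposide. The part of sex in the senescence differences was not tested.

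Fth1 was at 363.2, 395.1 and 369.3 CPM in uninduced vehicle cells (replicates 1, 2 and 3). H2O2-induced cells had 489.2, 567.6 and 542.1 CPM, and etoposide-induced cells had 595.3, 557.0 and 568.9 CPM. Every induced library lay above every uninduced one. The log2 fold change was 0.50 ± 0.10 (SE; adjusted p = 0.0148) with H2O2 and 0.61 ± 0.10 (adjusted p = 0.00783) with etoposide. Leaving out any uninduced library or H2O2 replicate 2 raised the adjusted p with H2O2 to between 0.0587 and 0.0707, with log2 fold changes of 0.45 to 0.53.

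Ftl1, the light chain gene, was at 1283, 1427 and 1275 CPM in uninduced cells, 2272, 2010 and 1558 CPM with H2O2, and 2789, 1725 and 1317 CPM with etoposide. All 3 H2O2 values exceeded the uninduced ones, while the lowest etoposide value lay among them. The differences, 0.54 ± 0.26 and 0.55 ± 0.26 on the log2 scale, did not pass the test (adjusted p = 0.217 and 0.206); without the etoposide vehicle library of replicate 1, which had the 2789 CPM, the etoposide difference was 0.19 ± 0.19 (adjusted p = 0.514). The ratio of Fth1 to Ftl1 counts had a median of 0.284 (0.274 to 0.354) over the 15 uninduced libraries and 0.282 (0.215 to 0.348) over the 15 H2O2 libraries. Over the 15 etoposide libraries it was 0.355 and ranged more widely, from 0.211 to 0.503. Each set of 15 spans 3 replicate numbers, and in induced cells the ratio differed between them. With etoposide it was 0.211 to 0.249 in replicate 1, 0.323 to 0.503 in replicate 2 and 0.329 to 0.432 in replicate 3. With H2O2 it was 0.215 to 0.269, 0.281 to 0.287 and 0.337 to 0.348 in the same order. Ncoa4, the ferritin cargo receptor, was at 39.47, 39.38 and 42.15 CPM in uninduced cells. It was at 52.11, 49.43 and 47.53 CPM with H2O2 and 46.19, 48.83 and 44.96 CPM with etoposide, all above the uninduced values, yet its log2 differences of 0.29 ± 0.09 and 0.21 ± 0.09 were not called (adjusted p = 0.0561 and 0.142).

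Tfrc was at 79.84, 97.28 and 68.87 CPM in uninduced vehicle cells. It was at 60.43, 38.96 and 26.79 CPM after H2O2 and at 35.82, 41.30 and 32.22 CPM after etoposide, with no overlap between induced and uninduced libraries. The transcript fell by 0.97 ± 0.27 on the log2 scale with H2O2 (adjusted p = 0.0464) and by 1.17 ± 0.27 with etoposide (adjusted p = 0.025). The H2O2 call was lost on leaving out any of 7 single vehicle libraries (adjusted p up to 0.171), and the etoposide call on leaving out any of 5 (up to 0.106). Over all alternatives the sizes stayed between -1.32 and -0.73 for H2O2 and between -1.28 and -1.03 for etoposide. The 4 proliferation genes were called lower with both inducers; Mki67, for example, was at 190, 241 and 234 CPM in uninduced vehicle cells and at 13.9, 13.1 and 23.6 CPM after H2O2. The part of proliferation in the Tfrc difference was not tested.

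The sensors did not pass the test. Aco1, which encodes the iron regulatory protein that doubles as cytosolic aconitase, was at 77.07, 76.15 and 74.72 CPM in uninduced cells. Its levels were 68.86, 67.56 and 57.93 CPM with H2O2 and 72.78, 61.98 and 58.36 CPM with etoposide, below the uninduced values throughout, and its log2 difference was -0.24 ± 0.11 in each case (adjusted p = 0.191 and 0.185); without the etoposide vehicle library of replicate 1 the etoposide value passed (-0.34 ± 0.09, adjusted p = 0.0495). Ireb2 stood at 100.6, 98.77 and 97.96 CPM in uninduced cells, at 93.32, 83.41 and 92.47 CPM with H2O2, and at 53.36, 82.84 and 96.54 CPM with etoposide (adjusted p = 0.629 and 0.236). Its lowest value belonged to the etoposide vehicle library of replicate 1, described above, and without that library the log2 difference with etoposide was -0.15 ± 0.08 (adjusted p = 0.252).

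For Slc11a2 the log2 difference was near 0 (-0.01 ± 0.14 with H2O2, 0.04 ± 0.14 with etoposide). Slc40a1 (0.54 ± 0.53 and 0.51 ± 0.53) and Steap3 (0.54 ± 0.60 and 0.62 ± 0.60) were not called either (adjusted p of 0.538 to 0.597), and their libraries overlapped. Between the 2 inducers, 0 of 9 genes and 0 of 15357 genes (0%) were called by edgeR in vehicle cells, 78 genes and none of the 9 had an unadjusted p under 0.05, and DESeq2 called 0 genes. The etoposide minus H2O2 difference of Tfrc was -0.20 (95% interval -0.80 to 0.41), and that of Fth1 was 0.11 (-0.11 to 0.34). With the replicate number as a block, which pairs these libraries, the differences were -0.13 (-0.54 to 0.28) for Tfrc and 0.11 (-0.14 to 0.37) for Fth1, and again 0 of all genes were called.

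**Figure D3:**
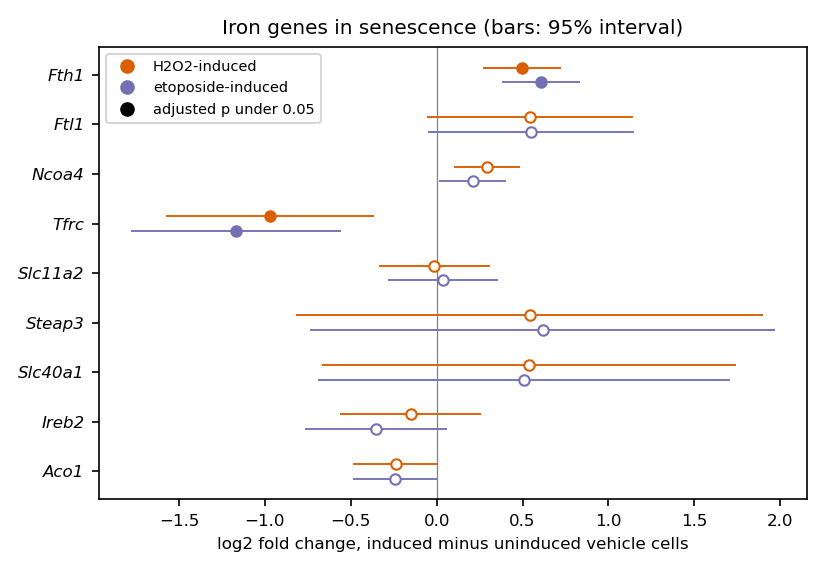
Log2 fold change of each gene in induced against uninduced vehicle cells; points are estimates from 3 against 3 libraries, bars are 95% intervals, and filled points had an adjusted p under 0.05. Fth1 (0.50 and 0.61) and Tfrc (-0.97 and -1.17) are filled for both inducers.

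ESA raised the transferrin receptor, the divalent metal transporter, ferritin heavy chain and ferroportin transcripts in uninduced cells. Of the 9 genes 4 were called, all higher, against 19.8% of the 16194 genes tested (9.19% called higher). Their median log2 fold change was 0.27, beside -0.02 over all genes tested. Without the ESA library of replicate 2, 2 of the 9 and 8.42% of all genes were called, and the share ran from 3.62% without uninduced preparation 2 to 25.2% without etoposide preparation 3. Tests within a state were fitted on all 45 libraries with the preparation as a block.

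Tfrc rose from 79.84, 97.28 and 68.87 CPM with vehicle to 138.8, 156.5 and 143.7 CPM with ESA in replicates 1, 2 and 3. The groups did not overlap, and the ratio within a preparation was 1.74, 1.61 and 2.09. The log2 fold change was 0.84 ± 0.18 (adjusted p = 0.000928), and 0.92 (adjusted p = 0.0047) without the uninduced ESA library of replicate 2. Slc11a2 rose less, from 27.66, 31.88 and 27.20 CPM to 32.10, 42.07 and 31.03 CPM (log2 fold change 0.27 ± 0.09, adjusted p = 0.0249). It was higher in 3 of 3 preparations although the groups overlapped, and the value was 0.19 (adjusted p = 0.237) without that library, 0.29 (0.0802) without preparation 1 and 0.31 (0.0668) without preparation 3. Of 16 alternative fits, 10 kept the Slc11a2 call. Steap3, the third uptake gene, was at 3.84, 2.84 and 2.34 CPM with vehicle against 2.77, 3.30 and 1.87 CPM under ESA (adjusted p = 0.737).

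Fth1 rose from 363.2, 395.1 and 369.3 CPM to 471.2, 734.4 and 455.7 CPM, with every ESA library above every vehicle library. Its log2 fold change was 0.53 ± 0.10 (adjusted p = 0.000355), and 0.36 (adjusted p = 0.0193) without the ESA library of replicate 2; without all 5 libraries of that preparation it was 0.34 (adjusted p = 0.0885). Ftl1 was at 1331, 2148 and 1408 CPM with ESA, of which only replicate 2 lay above the vehicle range, and was not called (0.27 ± 0.12, adjusted p = 0.116). Across genes, a library's deviation from its preparation mean was correlated (Spearman) with exon length by between -0.23 and 0.18. In that ESA library the value was -0.12. It was -0.2 in the etoposide vehicle library of replicate 1, which had the highest Ftl1 and the lowest Ireb2 level of all libraries. Treatment effects remain in this length index, since only the preparation mean was removed. Over the 45 libraries the index was correlated with Fth1 by -0.608, with Ftl1 by -0.607 and with Ireb2 by 0.612. The part of transcript length in the ferritin and Ireb2 values, here and in senescence, was not tested. Ncoa4 was nearly level at 40.50, 40.24 and 40.70 CPM with ESA (log2 difference 0.01, 95% interval -0.17 to 0.19).

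Slc40a1 rose from 2.02, 1.26 and 1.96 CPM to 2.82, 3.08 and 3.13 CPM, without overlap, which gave 0.82 ± 0.22 on the log2 scale (adjusted p = 0.00812). Without the ESA library of replicate 2 the value was 0.63 (adjusted p = 0.109). Of 16 alternative fits, 13 kept the Slc40a1 call. Macrophages are known to make much ferroportin, and the 6 macrophage markers, of which 2 were called higher (Lyz2 by 0.98 and Cd68 by 0.82 on the log2 scale; 1 without that library), summed to 48.3 to 124 CPM with vehicle and to 129 to 162 CPM with ESA. In induced cells the same markers and Slc40a1 were both highest in replicate 3: Slc40a1 was at 3.04 to 5.40 CPM there with H2O2 and 3.67 to 4.96 CPM with etoposide, against at most 3.09 CPM in replicates 1 and 2. The part of macrophage RNA in the Slc40a1 values was not tested. The sensor genes were not called: Ireb2 was at 105.2, 68.47 and 97.69 CPM (adjusted p = 0.613) and Aco1 at 70.63, 75.09 and 71.26 CPM (adjusted p = 0.426).

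In senescent cells none of the 9 genes was called with ESA, against 1.48% of genes with H2O2 and 0.611% with etoposide; 1 of the 9 had an unadjusted p under 0.05 in each state, and that gene was Tfrc. The H2O2 share ran from 0.0122% without H2O2 preparation 1 to 2.8% without etoposide preparation 3. The etoposide share was 0.0606% without the vehicle library of replicate 1, 0.0182% without preparation 1 and 12.8% without preparation 3. With ESA Tfrc was at 95.73, 53.15 and 45.19 CPM in H2O2-induced cells, above vehicle in 3 of 3 preparations (log2 difference 0.63 ± 0.18, adjusted p = 0.0756). In etoposide-induced cells it was at 106.1, 63.49 and 29.79 CPM, above vehicle in preparations 1 and 2 and slightly below it in preparation 3 (0.66 ± 0.18, adjusted p = 0.106). Both values passed the threshold in DESeq2 (adjusted p = 0.0284 each). The etoposide value turned on single libraries: it was 0.37 (adjusted p = 0.547) without the vehicle library of replicate 1 and 1.09 (adjusted p = 0.0013) without preparation 3.

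**Figure D4:**
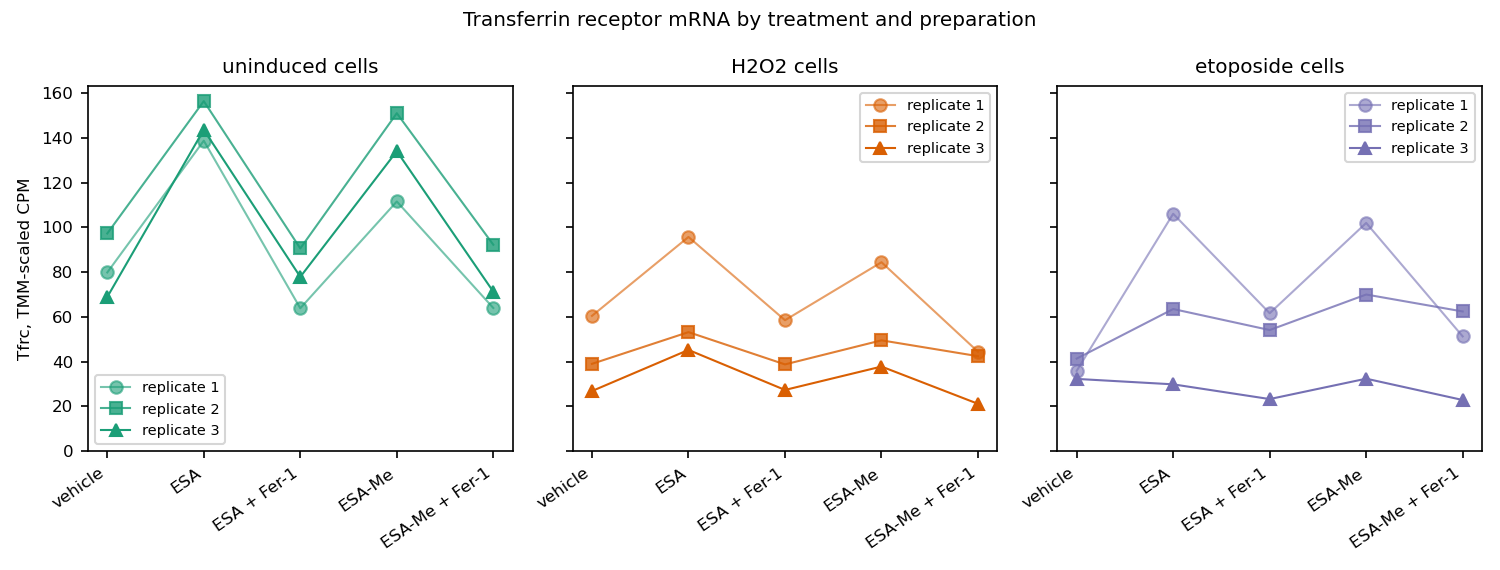
Tfrc level in TMM-scaled CPM for each treatment and cell state; lines join libraries of the same replicate number. In uninduced cells all 3 lines rise with ESA (138.8 to 156.5 CPM) and ESA-Me (111.6 to 151.1 CPM) and are at 63.83 to 92.25 CPM when Fer-1 was added; in etoposide cells replicate 3 stays between 22.78 and 32.32 CPM.

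With ESA-Me, Tfrc was the only gene of the 9 to pass the test, and only in uninduced cells, where 1.64% of all genes were called (1.01% higher; 0% without uninduced preparation 2 and 3.73% without etoposide preparation 3). It was at 111.6, 151.1 and 134.1 CPM, above all vehicle libraries, which gave 0.69 ± 0.18 on the log2 scale (adjusted p = 0.0397). The call was lost without any 1 of the 3 uninduced preparations or without H2O2 preparation 3 (adjusted p of 0.0840 to 0.426), with values of 0.56 to 0.79. Fth1 was at 432.1, 511.2 and 388.3 CPM (log2 difference 0.23 ± 0.10, adjusted p = 0.272) and Slc40a1 at 1.703, 1.669 and 2.098 CPM (0.09 ± 0.23, adjusted p = 0.925). Side by side, and at doses that may differ, the changes with ESA and ESA-Me in uninduced cells were 0.84 and 0.69 for Tfrc, 0.53 and 0.23 for Fth1, 0.27 and 0.14 for Slc11a2, and 0.82 and 0.09 for Slc40a1. These pairs share their vehicle libraries.

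H2O2-induced cells had no call among the 9 genes with ESA-Me (0.908% of all genes, from 0.0061% without H2O2 preparation 1 to 1.81% without etoposide preparation 3; 1 of 9 at an unadjusted p under 0.05). Tfrc was at 84.43, 49.48 and 37.75 CPM, above vehicle in 3 of 3 preparations (log2 difference 0.44 ± 0.18, adjusted p = 0.271). Etoposide-induced cells had none either (0.284% of all genes, but 0% without the vehicle library of replicate 1 and 21.8% without preparation 3; 2 of 9 at an unadjusted p under 0.05). There Tfrc was at 102.0, 69.98 and 32.32 CPM (0.71 ± 0.18, adjusted p = 0.0905). The value was 0.43 (adjusted p = 0.621) without the vehicle library of replicate 1 and 1.12 (adjusted p = 0.00105) without preparation 3.

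Adding Fer-1 lowered the transferrin receptor transcript in uninduced cells whichever compound was present. The Fer-1 contrasts use the same ESA or ESA-Me libraries as the contrasts against vehicle, with opposite sign. A rise there and a fall here are therefore not independent. With ESA, 3 of the 9 genes were called, all lower, against 20.1% of all genes (9.65% called lower). Without the ESA library of replicate 2, 1 of the 9 and 9.17% of all genes were called, and without uninduced preparation 2 the share was 5.14%. Tfrc fell from 138.8, 156.5 and 143.7 CPM with ESA alone to 63.83, 90.60 and 77.87 CPM with ESA and Fer-1. It was lower in 3 of 3 preparations without overlap (log2 fold change -0.93 ± 0.18, adjusted p = 0.000375).

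Slc11a2 fell from 32.10, 42.07 and 31.03 CPM to 25.01, 29.66 and 27.69 CPM, also without overlap (-0.35 ± 0.09, adjusted p = 0.00527). Fth1 fell from 471.2, 734.4 and 455.7 CPM to 448.0, 489.7 and 395.8 CPM, and these groups overlapped (-0.30 ± 0.10, adjusted p = 0.0334). Without the ESA library of replicate 2, Tfrc was at -1.01 (adjusted p = 0.00198), while Slc11a2 (-0.27, adjusted p = 0.0761) and Fth1 (-0.13, adjusted p = 0.465) no longer passed. The Fth1 call was also lost without uninduced preparation 3 (adjusted p = 0.0839) or H2O2 preparation 3 (adjusted p = 0.0512). Of 15 alternative fits, 10 kept the Fth1 call and 12 the Slc11a2 call. Slc40a1 was at 2.49, 1.73 and 2.44 CPM with Fer-1, below each ESA library, but was not called (-0.46 ± 0.22, adjusted p = 0.154), and the macrophage markers, 3 of 6 called lower (0 without the ESA library of replicate 2), summed to 46.6 to 122 CPM there.

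With ESA-Me, Fer-1 changed 1 of the 9 genes in uninduced cells, against 3.68% of all genes (1.94% lower), a share of 0.0551% without uninduced preparation 2 and 7.08% without etoposide preparation 3. Tfrc fell from 111.6, 151.1 and 134.1 CPM to 63.95, 92.25 and 71.25 CPM, without overlap (-0.81 ± 0.18, adjusted p = 0.00851). Without any 1 uninduced preparation the adjusted p was 0.122 to 0.142 and the value -0.87 to -0.76.

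In H2O2-induced cells Fer-1 lowered Tfrc among 9 genes when added to ESA (1 of 9 called, against 4.18% of all genes and 3.04% lower, and 0.146% without H2O2 preparation 1). The levels were 58.48, 38.71 and 27.28 CPM with Fer-1 against 95.73, 53.15 and 45.19 CPM without it, lower in 3 of 3 preparations although the groups overlapped (-0.64 ± 0.18, adjusted p = 0.0408). That call was lost without any 1 preparation of uninduced or H2O2-induced cells (adjusted p 0.0610 to 0.678, values -0.72 to -0.59). When Fer-1 was added to ESA-Me, none of the 9 genes was called (2.12% of all genes, and 0.0671% without H2O2 preparation 1; 2 of 9 at an unadjusted p under 0.05), and Tfrc was at 44.37, 42.39 and 21.08 CPM (-0.65 ± 0.19, adjusted p = 0.0583). Etoposide-induced cells had no call when Fer-1 was added to ESA (2.37% of all genes, and 0.0666% without etoposide preparation 1; 2 of 9 at an unadjusted p under 0.05), with Tfrc at 61.60, 54.08 and 23.20 CPM, lower in 3 of 3 preparations (-0.48 ± 0.18, adjusted p = 0.166).

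Steap3 was the 1 gene of the 9 called in etoposide-induced cells when Fer-1 was added to ESA-Me (4.45% of all genes, 1.8% higher). It was at 0.974, 5.02 and 4.27 CPM with ESA-Me and at 2.25, 6.22 and 18.14 CPM with Fer-1, which gave 1.35 ± 0.27 on the log2 scale (adjusted p = 0.0032). The highest value belongs to the library whose Ddx3y goes against its number, and the other 4 libraries of that preparation were at 3.93 to 7.33 CPM. Without it the value was 0.65 (adjusted p = 0.262), and the share of all genes called was 0.523%. Tfrc was at 51.23, 62.39 and 22.78 CPM with Fer-1 (-0.55 ± 0.18, adjusted p = 0.0778), and at -0.48 ± 0.21 (adjusted p = 0.358) without that library.

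Every call within a state depended on the preparation block. Without it, ESA in uninduced cells gave log2 fold changes of 0.84 for Tfrc (adjusted p = 0.472), 0.56 for Fth1 (0.0745), 0.79 for Slc40a1 (0.605) and 0.28 for Slc11a2 (0.466). The Fer-1 calls of Tfrc were likewise at adjusted p 0.392 with ESA and 1 with ESA-Me in uninduced cells and 1 with ESA in H2O2-induced cells, and Tfrc with ESA-Me and Steap3 were at 1 and 0.999.

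**Figure D5:**
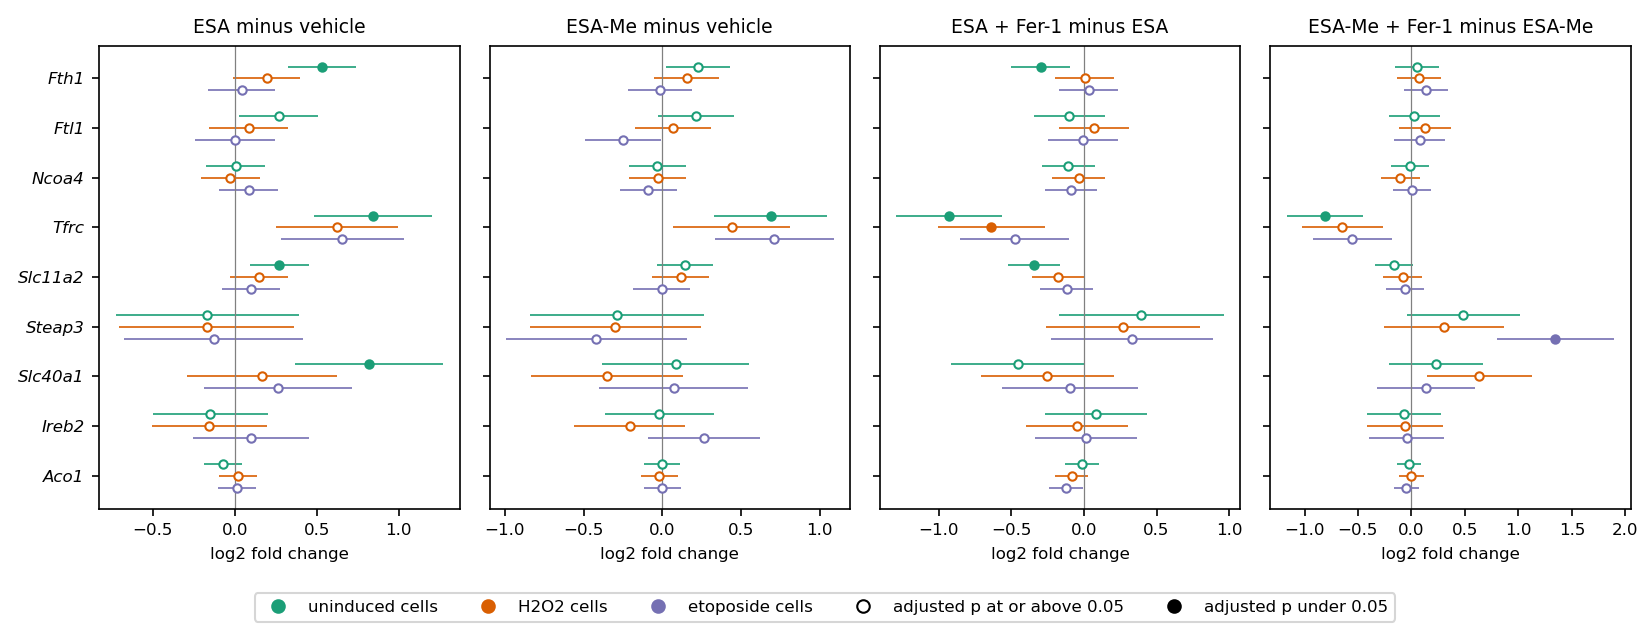
Log2 fold change of each gene with ESA or ESA-Me against vehicle, and with Fer-1 added to either compound, in the 3 cell states (colours); bars are 95% intervals from the blocked model on 3 libraries a group, and filled points had an adjusted p under 0.05. Tfrc lies to the right of 0 in all 6 compound contrasts and to the left of 0 in all 6 Fer-1 contrasts, and is filled in 2 of the first and 3 of the second. The compound and Fer-1 contrasts share the compound libraries with opposite sign, so these directions are not independent.

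With Fer-1 present and all libraries kept, none of the 9 genes was called against vehicle in any of the 6 contrasts. In uninduced cells ESA with Fer-1 gave 0 calls among all genes (0%), with 600 genes and 1 of the 9 at an unadjusted p under 0.05, and DESeq2 called 2 genes. The counts at an unadjusted p under 0.05 were 390 after H2O2 and 676 after etoposide, with 0 adjusted calls in each by edgeR and by DESeq2. ESA-Me with Fer-1 gave 0, 0 and 3 calls (0%, 0% and 0.0185%) in uninduced, H2O2-induced and etoposide-induced cells, with 543, 643 and 1738 genes at an unadjusted p under 0.05 and 0, 1 and 18 calls by DESeq2. The counts in etoposide-induced cells turned on preparation 3: without it, 1779 genes (10.8%) were called for ESA with Fer-1 and 1156 (7.04%) for ESA-Me with Fer-1. Tfrc (0.57, adjusted p = 0.0401) and Ireb2 (0.53, adjusted p = 0.0262) then passed with ESA and Fer-1, and Ftl1 (-0.34, adjusted p = 0.0424) with ESA-Me and Fer-1. Steap3 passed with ESA-Me and Fer-1 without etoposide preparation 2 (1.85, adjusted p = 7.85e-05) and without the count filter (0.94, adjusted p = 4.64e-05), and was at 0.26 (adjusted p = 0.993) without the ESA-Me with Fer-1 library of replicate 3. For Tfrc in uninduced cells the log2 difference was -0.09 (95% interval -0.45 to 0.28) with ESA and Fer-1 and -0.12 (-0.48 to 0.24) with ESA-Me and Fer-1. Fth1 with Fer-1 stayed above each uninduced vehicle library, at 395.8 to 489.7 CPM with ESA and 396.1 to 499.6 CPM with ESA-Me, with log2 differences of 0.23 (0.03 to 0.44) and 0.28 (0.08 to 0.49) that did not pass the adjusted test (adjusted p = 1 for both).

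Whether the compounds acted differently on senescent cells was tested as the difference of the responses. With all libraries kept, none of the 9 genes was called (background 0.259% and 0.741% of genes for ESA after H2O2 and after etoposide, 0% for ESA-Me in each). At an unadjusted p under 0.05 there were 2 and 1 of the 9 for ESA and 0 and 1 for ESA-Me; over all genes ESA-Me had 445 and 792 such genes and 0 DESeq2 calls. For Tfrc the response to ESA in H2O2-induced minus uninduced cells was -0.22 (95% interval -0.74 to 0.30), and in etoposide-induced minus uninduced cells -0.19 (-0.71 to 0.33). With ESA-Me the same differences were -0.25 (-0.77 to 0.27) and 0.02 (-0.50 to 0.54). For Fth1 the ESA response differed from that of uninduced cells by -0.34 ± 0.14 after H2O2 and by -0.49 ± 0.14 after etoposide, neither past the test (adjusted p = 0.509 and 0.111). Without the uninduced ESA library of replicate 2 they were -0.17 ± 0.13 (adjusted p = 1) and -0.32 ± 0.13 (adjusted p = 0.529).

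The response differences after etoposide also turned on etoposide preparation 3. Without it 7.52% of genes were called for ESA and 4.62% for ESA-Me, while the ESA share was 0% without uninduced preparation 2 and 0.0365% without the uninduced ESA library of replicate 2. In ESA response differences without etoposide preparation 3, Fth1 (-0.61, adjusted p = 0.0186), Ftl1 (-0.50, adjusted p = 0.023) and Ireb2 (0.70, adjusted p = 0.0271) passed. In those of ESA-Me, Ftl1 (-0.74, adjusted p = 0.0228) and Ireb2 (0.68, adjusted p = 0.0399) passed. Without the count filter Fth1 passed for ESA (-0.47, adjusted p = 0.0148) and Ftl1 for ESA-Me (-0.48, adjusted p = 0.0194). After H2O2 the ESA share was 0.0061% without H2O2 preparation 2 and 0.81% without etoposide preparation 3.

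Ordered by mean level over the 15 groups, Tfrc ran from 146.3 ± 9.14 CPM (SD, n = 3) in uninduced cells with ESA and 132.3 ± 19.8 CPM with ESA-Me, through 82.0 ± 14.3 CPM with vehicle, to 35.95 ± 12.9 CPM in H2O2-induced cells with ESA-Me and Fer-1. Of the 14 pairs of neighbours in that order, 1 did not overlap, uninduced ESA-Me above uninduced vehicle. The 5 uninduced groups held the first 5 places. Among the other genes Aco1 had 1 pair of neighbours without overlap and the rest had none. The groups were sorted by these same means and the count was not made over all genes. How usual such a gap is cannot be told from it.

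State, preparation and treatment took different shares of the variance of log2 CPM over the 45 libraries. State took 64.5% for Aco1, 54.4% for Fth1, 49.7% for Ncoa4 and 44.7% for Tfrc. Preparation within state took 76.5% for Steap3, 67.6% for Slc40a1, 53.2% for Ftl1 and 49.3% for Slc11a2. Treatment within state took 28.4% for Slc11a2, 20.1% for Tfrc and 18.6% for Fth1, and 14.7% or less for the other 6. Ireb2 had the largest unassigned share, 45%.

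After the mean of each preparation was removed, the genes most like each of these in pattern were found by Pearson's r over 45 libraries among 10082 genes; libraries share depth and composition, so r is a description. Tfrc was nearest to Fgf2 (0.95), Uhrf1bp1l (0.949) and Raph1 (0.939). Fth1 was nearest to Sod1 (0.848), Mt1 (0.838) and Slc48a1 (0.828), and Ftl1 to Ctsd (0.842), Cope (0.829) and Fau (0.816). Slc11a2 was nearest to Rcc1 (0.871), Imp4 (0.869) and Cct3 (0.862), and Ireb2 to Exoc5 (0.963), Yme1l1 (0.961) and Ube3a (0.961). Steap3 was nearest to Igdcc4 (0.843), Csdc2 (0.841) and Lrp4 (0.837), and Aco1 to Fpgs (0.77), Maea (0.73) and Fstl3 (0.707). The nearest genes were less alike for Ncoa4 (Rpl21-ps15 0.721, Rpsa-ps7 0.709, Rpl17-ps3 0.694) and Slc40a1 (Epdr1 0.666, B4galt1 0.663, Tmem251 0.638). Among the 9, the 2 ferritin chains had r = 0.629 with each other, and Ftl1 had -0.728 and Fth1 -0.509 with Ireb2. Over these 45 libraries the length index given above was correlated with Fth1 by -0.608, with Ftl1 by -0.607 and with Ireb2 by 0.612. The part of transcript length in the correlations among Fth1, Ftl1 and Ireb2 was not tested. Tfrc had r = 0.564 with Slc11a2 and -0.594 with Steap3.

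The other genes of iron handling are given by list, as counts beside the shares of all genes stated above. Of 8 tested genes of other uptake routes and ferrireductases, 1 was called higher and 1 lower with ESA in uninduced cells. These were Slc11a1, a phagosomal metal transporter, from 1.57 ± 0.272 to 3.13 ± 0.286 CPM, and the ferrireductase gene Steap2, from 44.06 ± 7.66 to 34.38 ± 3.27 CPM; without the ESA library of replicate 2 neither was called (adjusted p = 0.092 and 0.0583). In the same contrast the 6 macrophage markers summed to 48.3 to 124 CPM with vehicle and to 129 to 162 CPM with ESA. The part of macrophage RNA in the Slc11a1 value was not tested. Of this list, none of the 7 tested was called in senescence.

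The other export and ferroxidase list (2 of 3 tested) and the sensing and hepcidin list (3 of 6 tested) had no call with ESA, with ESA-Me or with Fer-1 added to ESA in uninduced cells, or in senescence. Of 4 tested storage and chaperone genes, none was called with ESA in uninduced cells. In senescence Glrx3, a cytosolic glutaredoxin, rose with H2O2 (157.6 to 218.2 CPM, log2 fold change 0.46 ± 0.11, adjusted p = 0.0316) and with etoposide (237.8 CPM, 0.59 ± 0.11, adjusted p = 0.0129). The iron chaperone gene Pcbp2 fell with H2O2 (346.1 to 247.2 CPM, -0.49 ± 0.13, adjusted p = 0.0413).

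Of 10 mitochondrial iron and iron-sulfur cluster genes, 1 was called with ESA in uninduced cells. This was Slc25a37, encoding the iron importer mitoferrin 1, which rose from 39.71 ± 2.19 to 69.94 ± 6.98 CPM (log2 fold change 0.82 ± 0.13, adjusted p = 8.28e-05). It rose with ESA-Me too (58.46 ± 4.88 CPM, adjusted p = 0.0298), and fell when Fer-1 was added to ESA (38.87 ± 4.75 CPM, adjusted p = 5.38e-05). In senescence 3 of the 10 were called higher with each inducer: Iscu, the scaffold on which clusters are built, Lyrm4 and Hscb. The log2 fold changes with H2O2 and etoposide were 0.68 and 0.86 for Hscb and 0.67 and 0.80 for Lyrm4. Cisd2 and Slc25a28 fell with both inducers.

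Of 6 heme iron genes, 4 were called higher with ESA in uninduced cells and 3 lower when Fer-1 was added. Hmox1, whose product frees iron from heme, was at 99.4, 109 and 102 CPM with vehicle, 346, 1370 and 396 CPM with ESA and 116, 149 and 117 CPM with ESA and Fer-1, without overlap between ESA and either (log2 fold change 2.56 ± 0.34, adjusted p = 5.81e-06, and -2.28 ± 0.34, adjusted p = 2.03e-05). Without the ESA library of replicate 2 these values were 1.97 ± 0.31 (adjusted p = 0.000246) and -1.68 ± 0.31 (adjusted p = 0.000974), and 3 heme genes were called in each contrast. The biliverdin reductase gene Blvrb (1.43 ± 0.21) and the heme transporter gene Slc48a1 (0.81 ± 0.10) had the next largest log2 fold changes with ESA, and Slc48a1 was the 1 heme gene called in senescence (0.77 ± 0.15 with H2O2, 0.84 ± 0.15 with etoposide). All 8 NRF2 targets outside iron handling were called higher with ESA and lower with Fer-1, with the largest log2 fold changes with ESA in Osgin1 (2.56 ± 0.32), Srxn1 (2.37 ± 0.24) and Slc7a11 (1.92 ± 0.29); without that library 8 were called higher with ESA and 6 lower with Fer-1. Of 8 lysosome genes, 6 were called higher with H2O2 and 5 with etoposide, and 2 with ESA in uninduced cells; Ctsd, a lysosomal protease gene, was called in all 3 (log2 fold change 1.22, 1.18 and 0.29). The other large lysosome changes in senescence were in the proton pump gene Atp6v0d1 (0.89 with each inducer) and in the protease gene Ctsb (0.67 and 0.66), and with ESA in the pump gene Atp6v1h (0.47). Ctsd was not called with ESA once that library was left out (0.12, adjusted p = 0.522).

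Markers of cell identity and division moved in the same contrasts. With ESA in uninduced cells, 4 of 4 proliferation genes and 4 of 8 fibroblast markers were called lower, and with Fer-1 added 3 of each were called higher. Counting both directions, 19.8% of all genes were called with ESA and 20.1% with Fer-1 added to ESA. The largest log2 fold changes with ESA were -1.05 for Mki67, -0.86 for Top2a and -0.84 for Ccnb1 among proliferation genes, and -0.57 for Col3a1, -0.56 for Pdgfrb and -0.39 for Col1a1 among fibroblast markers. With the ESA library of replicate 2 left out, 1 gene of each of these lists was called lower with ESA and 1 of each higher with Fer-1 added. The endothelial list had 1 gene, Tek, called lower with ESA (-2.27 ± 0.52); epithelial and muscle lists had none there. In senescence Krt19 (-3.28 with H2O2 and -2.74 with etoposide), Des (-1.58 and -1.50) and Emcn of the endothelial list (-2.33 and -2.47) were called lower; of the fibroblast markers, Pdgfrb was called higher with H2O2 (0.36) and Col1a1 lower with etoposide (-0.77). The part of these shifts in the iron gene values was not tested.

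RefSeq promoter entries (250 bases before to 50 after a start) were available in 14 windows for 7 of the 9 genes, with no entry for Slc40a1 and Slc11a2. The core of the antioxidant response element bound by NRF2, TGACNNNGC read on both strands, occurred in 1 of them, of Ncoa4, and in 12.4% of 32851 promoters. The AP-1 motif TGANTCA occurred in 0 of 14 (7.81% of all) and the E-box CACGTG in 0 of 14 (7.15% of all). These windows are short, and absence of the letters there says nothing of elements elsewhere.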

How the data were processed

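Total RNA was sequenced with a stranded kit, per the labels' protocols. The authors deposited raw read counts per gene. The submitters' processing notes name FastQC, HISAT2 2.1.0, featureCounts, edgeR and the GRCm38 genome, without order or settings. Gene symbols are those of the deposited table; 52029 of its 57010 identifiers were in GENCODE M21.

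From the counts, genes were tested in R 4.3.3 by edgeR 4.0.16 (filterByExpr, TMM scaling, quasi-likelihood test, Benjamini-Hochberg adjustment over all genes kept, called under 0.05). Comparisons within a state and differences of responses came from 1 model of all 45 libraries with 15 groups and the replicate number nested in state as a block (16194 genes, 24 residual degrees of freedom). Senescence and the comparison of inducers came from the 9 vehicle libraries without a block (15357 genes, 6 residual degrees of freedom). There were 25 comparisons. Numbers pair libraries within a state: deviations from group means were correlated across genes by 0.259 to 0.82 for the same number and by at most 0.0973 for different numbers. They also pair H2O2 with etoposide vehicle libraries (0.623 to 0.762, against at most -0.0388), but not uninduced with induced ones (-0.216 to 0.0525). Whether replicates came from separate animals or cultures is stated only as biological replicates, so p-values measure spread between these samples. CPM use TMM-scaled library sizes; correlations use log2 CPM with a prior count of 2. Totals of 13.5 to 59.6 megareads limit precision mainly for Steap3 and Slc40a1, and errors cover these libraries only.

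The 9 genes and all lists were chosen with earlier results of these data known. Of the other lists, counts are given, with values for up to 3 called genes of the largest change; genes of like pattern are the 3 of highest r with a mean of at least 5 CPM and a symbol that is no model name. Sex-linked genes and the marker levels named beside a library were chosen after their values were seen. The result of 1 list gene is not reported here. Alternatives were no block, DESeq2 1.42.0, RLE size factors, no count filter, a fit of the states compared and leaving out replicates. The fits were also run on counts simulated from the same fitted models, which cannot test the choice of block or the estimated spread. No library was left out of the main results.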

Additional observations from a re-analysis of the deposited data

How the results depend on the processing

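The number of calls over the 9 genes and the states compared is given here against its main value. Taking out the replicate block, which pairs libraries within a state, moved the calls from 4 to 0 for ESA, from 1 to 0 for ESA-Me, from 4 to 0 for Fer-1 added to ESA and from 2 to 0 for Fer-1 added to ESA-Me; adding a replicate block to the senescence comparison, whose uninduced and induced libraries are not paired by number, moved them from 4 to 1. DESeq2 gave 2 for ESA-Me and 4 for Fer-1 added to ESA-Me. Without the count filter there were 3, 4, 1 and 2 for ESA-Me, Fer-1 added to ESA-Me, ESA-Me with Fer-1 against vehicle and the response difference, the last 2 from a main value of 0. Leaving out replicates gave 1 to 8 for ESA, 0 to 5 for ESA-Me, 1 to 4 and 1 to 3 for Fer-1 added to ESA and to ESA-Me, 0 to 2 and 0 to 1 for the compounds with Fer-1 against vehicle, 0 to 5 for the response difference and 1 to 5 for senescence. Chosen after seeing the data, leaving out the uninduced ESA library of replicate 2 gave 2 for ESA and 2 for Fer-1 added to ESA, and leaving out the etoposide ESA-Me with Fer-1 library of replicate 3 gave 1. The count for etoposide against H2O2 was 0 under every alternative run. The cause of these shifts was not tested. No called value reversed. Single-gene values were tallied for each gene and comparison called in the main fit or in any alternative, and for Tfrc in every comparison. Other pairs of gene and comparison were left out of the tally. Of the tallied values under alternatives, 653 stayed on their side of the threshold, 62 lost it and 49 gained it. Over all genes, ESA in uninduced cells gave 3213 calls with the block and 23 without. Depth limits Steap3 and Slc40a1, with as few as 14 and 25 counts in a library.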
